A study of Homo sapiens with 8 samples.

Results

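The genes described here encode the BET proteins and the regulators of P-TEFb, the kinase complex that BET proteins bring to chromatin. There were 9 of them, picked by name from 20033 protein-coding genes: BRD2, BRD3, BRDT, HEXIM1, HEXIM2, CDK9, CCNT1, CCNT2 and LARP7. For each gene, every H3K27ac peak from 20 kb before to 20 kb after the gene was followed in every library. H3K27ac is acetylation of histone H3 at lysine 27, found at active promoters and enhancers. It was read by chromatin immunoprecipitation and sequencing (ChIP-seq). The cells were pancreatic progenitors (PPs) made from an established line of human embryonic stem cells, labelled MEL1 and given in the methods as MEL1 INS GFP/W, which carries a GFP reporter at the insulin gene. All PPs grew in EF6, a basal medium of DMEM with B27, EGF, bFGF and the TGFβ inhibitor 616452, and received DMSO, the solvent, or I-BET151 at 1 μM over 7 days. I-BET151 occupies the acetyl-lysine pocket of BET bromodomains. The series held 8 samples, namely H3K27ac libraries from 2 DMSO and 2 I-BET151 samples and 4 inputs with no peak list of their own.

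BET proteins carry paired bromodomains that bind acetylated histone tails, and they draw P-TEFb to acetylated promoters and enhancers. P-TEFb is CDK9 with a cyclin T subunit (CCNT1 or CCNT2), and it releases paused RNA polymerase II by phosphorylating the polymerase tail and the pausing factors. Much cellular P-TEFb is kept inactive in a particle built on the 7SK RNA, in which HEXIM1 or HEXIM2 blocks the kinase and LARP7 stabilises the RNA. The HEXIM1 transcript is widely used as a readout of exposure to BET inhibitors. Transcripts were not analysed here.

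The peak lists held 12312 to 14248 peaks per library. Library totals estimated from the lists were 7.76 to 9.84 M ChIP reads against 2.67 to 3.04 M input reads. The lowest read count at a listed summit was 14 to 18. A call also depends on the local input, so a region without a listed peak may still have been acetylated. Merging overlapping peaks (1 bp or more) gave 15752 regions, and 10317 of these had a peak in every library. Of the 10 PP markers, 9 had a peak at a start in every library and PTF1A had none. Peaks were found at 0 of 6 endocrine markers, at 1 of 5 pluripotency markers (LIN28A), at 1 of 3 liver markers (APOA1) and at 1 of 3 mesenchymal markers (VIM) in each library. Both intestinal markers, CDX2 and VIL1, had a peak in 3 libraries, and VIL1 had none in I-BET151 replicate 2.

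The 9 windows held 23 regions, and 15 of these had a peak in every library. A peak lay within 1 kb of an annotated start of 8 members (all but BRDT), and for 6 of those the region was present in all 4 libraries, against 44.8% of 20007 protein-coding gene symbols. The number of members with a peak at a start was 6, 7, 8 and 6 in DMSO replicates 1 and 2 and I-BET151 replicates 1 and 2, beside 51.4, 52.4, 50.1 and 49.4% of protein-coding genes. Of the 23 regions, 14 lay at a member's own start and 7 had a summit nearest to another gene. Only 1 region was found in the pair of DMSO libraries alone (8.60% of all regions were), and 0 in the pair of I-BET151 libraries alone (2.81% of all regions). The other 7 were called in 1 to 3 libraries.

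The windows of the P-TEFb inhibitors HEXIM1 and HEXIM2 held the largest differences in covered length and in reads among the members. Around HEXIM1, the acetylated length was near 4.8 kb with DMSO and near 2.7 kb with I-BET151. Reads fell at 3 of the regions there, in an intron and at the start of the nearby gene PLCD3 and inside HEXIM1. Reads were an alternative measure, on which 14.0% of all regions were lower by limma's test, described below. The main measure was the ratio of ChIP over local input signal at the summit. On that ratio none of these 3 regions passed the test, and at the PLCD3 start the ratio did not fall. The region just before the HEXIM1 start read higher in both I-BET151 libraries. Peaks covered 4875 and 4679 bp of the HEXIM1 window (chr17:45148475-45152099 in hg38, plus strand, with the flanks) in the DMSO libraries. They covered 2678 and 2670 bp in the I-BET151 libraries. The groups did not overlap, with 4.78 ± 0.139 kb against 2.67 ± 0.00566 kb (SD, n = 2 each) and a difference of -2.10 kb. The 2-sided exact permutation test gave p = 0.33, the smallest that 2 libraries against 2 allow. Of 13655 gene windows with a peak, 41.2% also had both I-BET151 libraries below both DMSO libraries, and their median difference was -0.061 kb. Over the gene body alone the difference at HEXIM1 was -0.63 kb. With flanks of 10 kb it was -0.602 kb and with 50 kb it was -3.29 kb.

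The plot of peaks around HEXIM1 and HEXIM2 shows where the length differed. The windows of these neighbouring genes overlap and share 5 regions, so their results are not independent. A peak's height was taken as its fold, the ratio of ChIP over local input signal at the summit, and as the ChIP reads at the summit per 1000000 ChIP reads of the library (RPM). Replicates differed by a median of 0.357 (DMSO) and 0.356 (I-BET151) in log2 fold. In log2 RPM the same medians were 0.145 and 0.112.

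**Figure D1:**
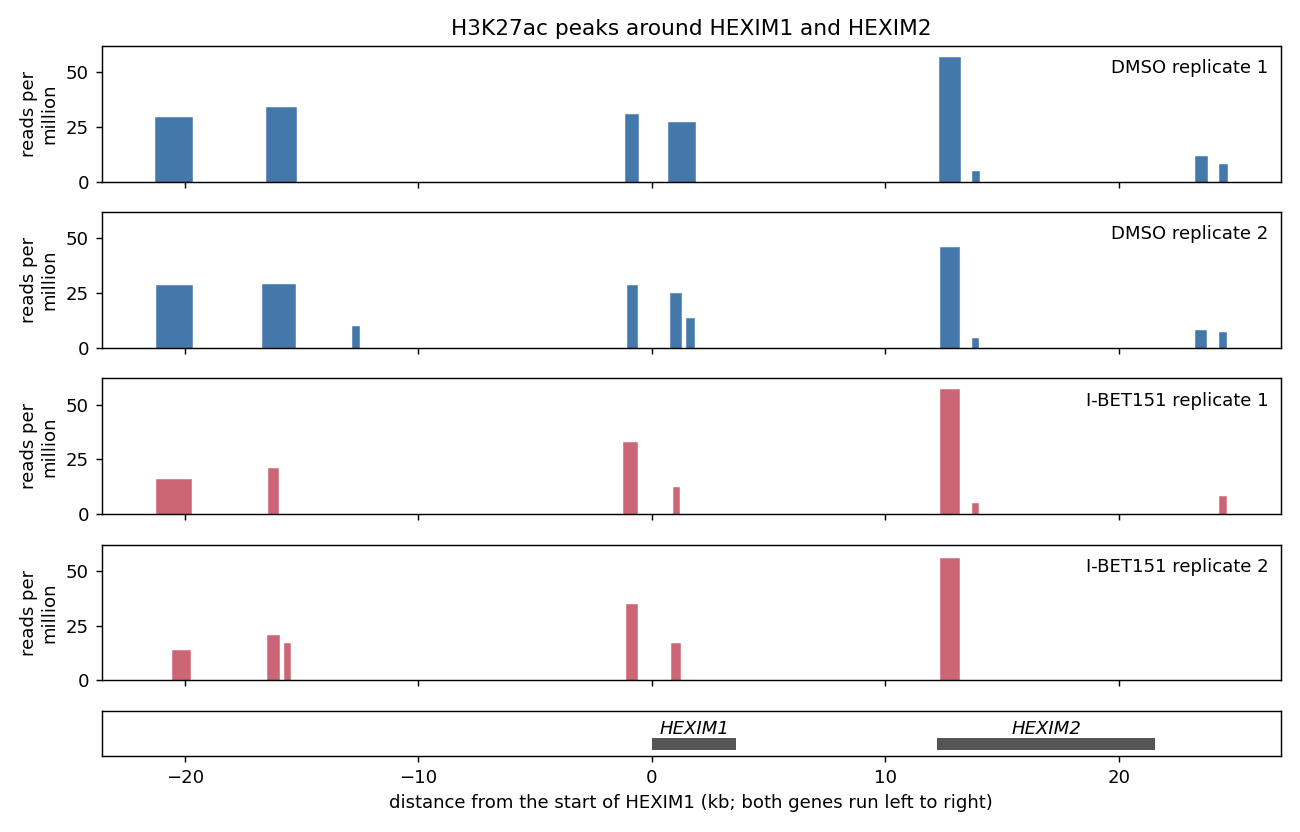
H3K27ac peaks of each library around HEXIM1 and HEXIM2, with the distance from the HEXIM1 start in kb on the horizontal axis, the peak's width as the bar's width and RPM at its summit as its height. The bars before and inside HEXIM1 are near 30 and 26 RPM in DMSO and near 34 and 15 in I-BET151, and the bar beyond the end of HEXIM2 at 11.7 and 8.33 in DMSO is missing in both I-BET151 libraries.

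HEXIM1 has 1 annotated start, with acetylated regions on both sides of it. The region before the start (chr17:45147253-45147870, summit 856 bp from it) read 31.0 and 28.6 RPM in DMSO and 33.0 and 34.8 in I-BET151. The I-BET151 libraries were both higher, by 0.19 on the log2 scale (standard error, SE, 0.12). The difference did not pass the test of limma, a linear model that shares its estimate of the spread over all 10050 regions (Benjamini-Hochberg adjusted p = 0.283). It passed when each library was centred on its median (0.24, adjusted p = 0.00652). The region inside the gene (chr17:45149181-45150344, in the coding exon, summit 1020 bp after the start) read 27.3 and 25.3 in DMSO and 12.4 and 17.0 in I-BET151. Both I-BET151 libraries were below both DMSO libraries, at 0.553 of the DMSO level. The difference of -0.85 (SE 0.13) passed limma's test (adjusted p = 4.698e-09). Among all 10050 shared regions with 4 read values, 14.0% were lower and 10.0% higher by this test, or 1409 and 1006 regions. With median-centred libraries these were 1580 lower and 2420 higher.

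Peaks covered 1164 and 746 bp of the region inside HEXIM1 in the DMSO libraries and 259 and 392 bp in the treated ones. In DMSO replicate 2 the length was split over separate peaks of 435 and 311 bp. The region's log2 covered length differed by -1.55 (SE 0.32), which did not pass limma's test over 10317 regions (adjusted p = 0.146). With any library other than DMSO replicate 1 left out, it was -1.87 to -1.25. Without DMSO replicate 1 the peaks merged otherwise, and the 311 bp peak of DMSO replicate 2 fell outside the region. The value of -0.45 obtained then belongs to a shorter region and cannot be set beside the others. The fold of the region inside HEXIM1 was 12.0 and 9.28 in DMSO and 2.76 and 7.74 in I-BET151. The lowest of these came with a local input level of 13, against 5 to 7 in the other libraries. This level is the input that the caller sets against the ChIP reads at the summit, after scaling those reads to the input's depth. On the fold scale the difference was -1.19 (SE 0.42) and did not pass (adjusted p = 0.298). It was -0.45 without I-BET151 replicate 1 and -1.94 without I-BET151 replicate 2.

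The ratio of the region inside the gene to the one before the start needs no scaling between libraries. It was 0.879 and 0.886 in DMSO and 0.375 and 0.489 in I-BET151, without overlap. The log2 ratio differed by -1.04, and the 2-sided exact permutation test gave p = 0.33, again the smallest possible. The ratio was set up after both regions had been seen.

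Another region that lost reads lay in an intron of PLCD3 (chr17:45127218-45128797, 3988 bp from the nearest PLCD3 start). PLCD3 is a phospholipase C gene near HEXIM1, with the ACBD4 start between them. The HEXIM1 window took in only the end of the intronic region nearest to HEXIM1. In DMSO the region's summits lay at chr17:45128502 and 45128527, within the window, and in I-BET151 at 45128091 and 45128467, outside it. The intronic region read 29.5 and 29.0 RPM in DMSO and 16.1 and 13.7 in I-BET151. These were 235 and 285 reads against 125 and 110, and the groups were far apart relative to their spread. The level with I-BET151 was 0.508 of that with DMSO, a log2 difference of -0.98 (SE 0.13) with limma's adjusted p = 3.144e-12. Its fold was 17.9 and 20.1 in DMSO and 9.86 and 6.25 in I-BET151, a log2 difference of -1.27 (SE 0.42) that did not pass (adjusted p = 0.27). Its length was 1580, 1552 and 1507 bp in DMSO replicates 1 and 2 and I-BET151 replicate 1, and 768 bp in I-BET151 replicate 2. The log2 length differed by -0.54 (SE 0.35, adjusted p = 0.523), and by -0.06 without I-BET151 replicate 2 and -1.03 without I-BET151 replicate 1.

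The region at the PLCD3 start (chr17:45131789-45133242) read 33.9 and 29.3 RPM in DMSO and 21.3 and 20.7 in I-BET151. The groups did not overlap, and the log2 difference of -0.59 (SE 0.12) passed limma's test (adjusted p = 2.333e-05). Peaks covered 1294 and 1421 bp of it in the DMSO libraries and 459 and 735 bp in the treated ones. In I-BET151 replicate 2 the length was split over separate peaks of 481 and 254 bp. The covered length did not pass limma's test (log2 difference -1.22, SE 0.25, adjusted p = 0.143). The fold went the other way, with 3.72 and 4.29 in DMSO and 4.37 and 4.33 in I-BET151 (log2 difference 0.12, SE 0.33, adjusted p = 0.925). The local input level at this summit was 27 and 19 in DMSO and 14 and 12.0 in I-BET151. The part of the input in these folds was not tested.

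Beyond the end of HEXIM2, 10131 bp from its nearest start and between protein-coding genes, lay the region called in DMSO alone (chr17:45171717-45172255). Its fold was 12.2 and 6.28 in DMSO, with 93 reads (95% Poisson interval 75.1 to 114) and 82 reads (65.2 to 102). Neither I-BET151 library listed a peak there. A neighbour (chr17:45172758-45173100) read 7.91 and 7.42 RPM in DMSO and 8.25 in I-BET151 replicate 1, and was not listed in I-BET151 replicate 2. A peak at the ACBD4 start was listed in DMSO replicate 2 alone, with 98 reads.

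The following sequences are those of the HEXIM1 promoter and of acetylated stretches around it. These are the region before the start, the intronic region with the largest loss of reads and the region found in DMSO alone. No library listed a peak over the promoter bases themselves, which lie between the regions before the start and inside the gene. The promoter is the 250 bases before the RefSeq start on the plus strand (GRCh38.p14, chr17:45148225-45148474). The others are the 300 bases around the summit on the plus strand of hg38: chr17:45147469-45147768 before the start, chr17:45128377-45128676 in the PLCD3 intron and chr17:45171898-45172197 beyond HEXIM2. Capitals mark matches on either strand to motifs searched by their letters: GGGCGG for the GC box, CCAAT for the box of that name, TATAAA for the TATA box, AGATAA for GATA factors, TGANTCA for AP-1, CACGTG for the E-box, TGACGTCA for the CRE, CCGGAAGT for ETS factors and TGTTTAC for FOXA factors.
HEXIM1 promoter: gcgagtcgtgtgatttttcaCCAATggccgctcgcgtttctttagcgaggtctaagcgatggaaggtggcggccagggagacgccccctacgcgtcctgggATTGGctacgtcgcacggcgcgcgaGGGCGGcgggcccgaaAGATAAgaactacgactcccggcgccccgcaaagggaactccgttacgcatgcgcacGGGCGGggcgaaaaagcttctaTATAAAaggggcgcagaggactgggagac
before the HEXIM1 start: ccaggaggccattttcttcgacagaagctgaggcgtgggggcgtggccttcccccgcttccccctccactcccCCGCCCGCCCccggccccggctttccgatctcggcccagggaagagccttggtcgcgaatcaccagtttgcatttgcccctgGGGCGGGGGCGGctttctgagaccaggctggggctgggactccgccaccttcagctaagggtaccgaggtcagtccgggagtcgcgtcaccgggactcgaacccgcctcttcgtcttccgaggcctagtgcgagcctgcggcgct
PLCD3 intron: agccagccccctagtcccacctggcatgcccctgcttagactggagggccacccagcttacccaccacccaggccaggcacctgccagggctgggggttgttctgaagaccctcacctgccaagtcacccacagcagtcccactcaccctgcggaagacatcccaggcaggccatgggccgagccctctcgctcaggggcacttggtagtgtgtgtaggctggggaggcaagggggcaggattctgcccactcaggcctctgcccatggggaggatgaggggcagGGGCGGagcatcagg
beyond HEXIM2: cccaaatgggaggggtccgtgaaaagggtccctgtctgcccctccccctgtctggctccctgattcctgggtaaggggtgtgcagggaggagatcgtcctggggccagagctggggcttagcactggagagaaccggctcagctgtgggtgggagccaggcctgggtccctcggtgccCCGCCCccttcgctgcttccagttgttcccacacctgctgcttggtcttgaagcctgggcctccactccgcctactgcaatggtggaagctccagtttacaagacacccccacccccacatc

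The HEXIM1 promoter held a TATAAA match from -29 to -24, counted from -1 at the base before the start. Shares were taken over 15345 RefSeq promoters, from 250 bases before to 50 after the start. A TATAAA match at any position and on either strand was found in 9.63% of them. The HEXIM1 promoter also held 2 GC boxes (59.2% of promoters have at least 1), 2 CCAAT boxes (36.6%) and 1 GATA match (7.46%). Its CpG content, as observed over expected, was 1.17 and ranked at percentile 98.7 of the promoters. The stretch before the start held 4 GC boxes and a CpG ratio of 0.775, near the median of 0.769 over all 15752 regions. The PLCD3 intron and the stretch beyond HEXIM2 had low ratios of 0.121 and 0.229 and 1 GC box each, against 64.7% of all regions with at least 1. These matches are descriptions of the letters only.

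HEXIM2, the relative of HEXIM1 that can take its place in the 7SK particle, showed another picture at its start. The region there (chr17:45160788-45161657) read 57.0 and 46.1 RPM in DMSO and 57.4 and 55.9 in I-BET151. The groups overlapped, and the log2 difference of 0.14 (SE 0.17) did not pass limma's test (adjusted p = 0.61). Without DMSO replicate 1 it was 0.29, and without DMSO replicate 2 it was -0.01. A single DMSO library gives no spread, so no test is given for these. DMSO replicate 2 was below DMSO replicate 1 at all 14 member regions with 4 read values. A small peak in a HEXIM2 intron carried 38, 46 and 39 reads in DMSO replicates 1 and 2 and I-BET151 replicate 1 and was not listed in I-BET151 replicate 2. Peaks covered 3757 and 3057 bp of the HEXIM2 window (chr17:45160700-45170040 with flanks) with DMSO, against 2257 and 1706 bp with I-BET151, a difference of -1.43 kb (exact p = 0.33). That difference was -0.183 kb over the gene body alone, since the regions inside HEXIM1 and beyond HEXIM2 carried most of it.

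**Figure D2:**
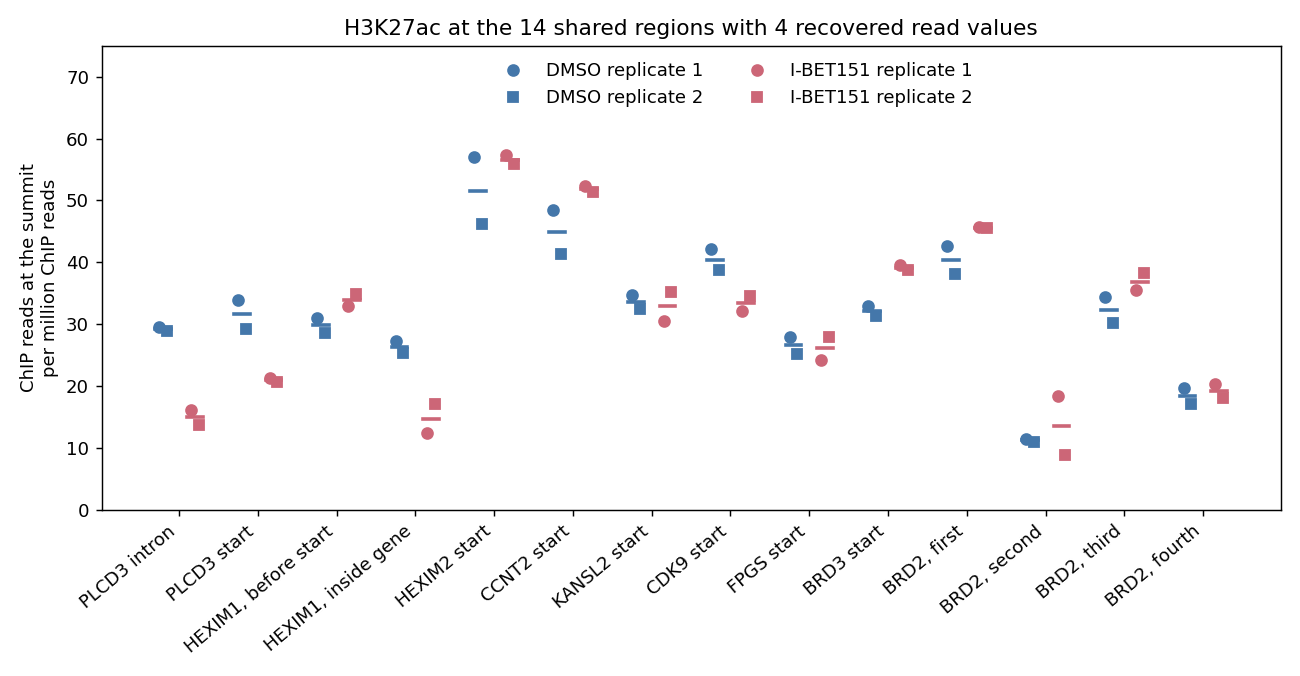
RPM at the summit (vertical axis, linear) at the 14 member regions with a value in all 4 libraries, with circles for replicate 1, squares for replicate 2 and bars for the mean of 2 libraries. The PLCD3 intron, the PLCD3 start and the region inside HEXIM1 are the 3 where reads fell with I-BET151 by limma's test, and the CDK9 start, at 32.1 and 34.6 against 42.1 and 38.7, is lower without passing it.

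At the BET genes no region passed a test on reads, fold or length. BRD2 and BRD3 encode broadly expressed BET proteins, and BRDT is the member restricted to the testis. BRD2 (chr6:32968594-32981505, plus strand) had 5 regions, all at annotated starts and all called in every library. Peaks covered 3473 and 3245 bp of its window with DMSO, against 3551 and 3231 bp with I-BET151, so the groups overlapped (difference 0.032 kb, exact p = 1).

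The broadest BRD2 region (chr6:32968084-32969709), which also reaches into an intron of HLA-DMA, read 42.7 and 38.1 RPM in DMSO and 45.6 and 45.5 in I-BET151. The difference was 0.18 (SE 0.14) on the log2 scale and did not pass limma's test (adjusted p = 0.411). It passed with median-centred libraries (0.23, adjusted p = 0.023), as did 2420 of 10050 regions in that direction. Without DMSO replicate 1 the difference was 0.26. Its fold of 14.9 in I-BET151 replicate 1 stood above the 8.18, 8.56 and 7.20 of the other libraries. That library had a local input level of 8.38 at the summit, against 12 to 16 in the others, and its RPM was level with that of I-BET151 replicate 2.

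Where a gene had several start regions, the one with the highest mean log2 fold over the 4 libraries was taken as its lead start region. That of BRD2 (chr6:32970658-32971275) read 34.4 and 30.2 RPM in DMSO and 35.5 and 38.3 in I-BET151. The difference of 0.19 (SE 0.13) did not pass (adjusted p = 0.281). It passed with median-centred libraries (0.25, adjusted p = 0.00651), again as 2420 of 10050 regions did in that direction. The fold there lay the other way, at 13.2 and 14.7 in DMSO and 8.36 and 12.9 in I-BET151, a log2 difference of -0.43 (SE 0.41) that did not pass (adjusted p = 0.758). The second region read 11.4 and 11.0 in DMSO and 18.3 and 8.83 in I-BET151, where the 2 treated libraries stood on either side of the controls. The fourth read 19.6 and 17.1 against 20.2 and 18.0. At the fifth, the fold was 3.84 and 3.41 in DMSO and 3.42 and 3.34 in I-BET151, and reads could not be recovered for I-BET151 replicate 2.

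BRD3 (chr9:134030305-134068535, minus strand) had the largest difference in fold at a lead start region among the members. The region (chr9:134066793-134068821) had a fold of 5.61 and 7.56 in DMSO and 9.19 and 8.68 in I-BET151. It read 32.9 and 31.3 RPM in DMSO and 39.6 and 38.7 in I-BET151, with no overlap on either scale. The level with I-BET151 was 1.22 times that with DMSO, and the log2 difference of 0.29 (SE 0.13) did not pass limma's test (adjusted p = 0.0853). It passed with median-centred libraries (0.34, adjusted p = 0.00122), as did 2420 of 10050 regions in that direction. Without DMSO replicate 1 the difference was 0.32. The log2 fold differed by 0.45 (SE 0.36, adjusted p = 0.688).

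Peaks covered 2124 and 1993 bp of the BRD3 window with DMSO, against 2201 and 2328 bp with I-BET151 (difference 0.206 kb, exact p = 0.33). Both I-BET151 libraries were above both DMSO libraries, as in 13.2% of gene windows with a peak. The gain lay at the start of the neighbouring gene BRD3OS, where peaks covered 332 and 0 bp with DMSO and 416 and 369 bp with I-BET151. The BRD3 start region itself covered 1792 and 1993 bp against 1785 and 1959 bp. The BRD3OS region read 17.2, 16.0 and 17.8 RPM in DMSO replicate 1 and both I-BET151 libraries and was not listed in DMSO replicate 2. Over 4 libraries, the genes whose start regions had log2 folds nearest to those of BRD3 were ZNF513 (Euclidean distance 0.0507), DCTD (0.115) and BEND3 (0.125).

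BRDT (chr1:91949343-92014426, plus strand) had no peak at any of its 14 annotated starts or in its body in any library. The single peak of its window lay at the EPHX4 start (chr1:92029897-92030410). It read 14.1 RPM in DMSO replicate 2 and 16.5 and 17.7 in I-BET151, and was not listed in DMSO replicate 1.

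**Figure D3:**
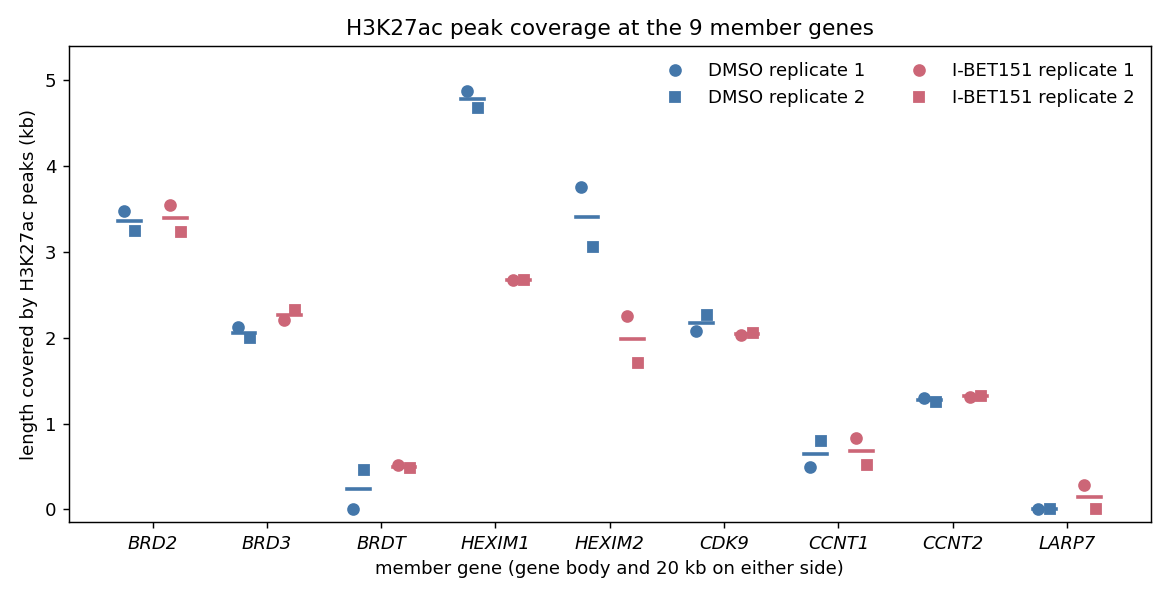
Length covered by H3K27ac peaks (vertical axis, kb) in each member gene with 20 kb added on both sides, with 1 point per library and bars for the mean of 2 libraries. The means are 4.78 (DMSO) and 2.67 kb (I-BET151) at HEXIM1 and 3.41 and 1.98 kb at HEXIM2, while the other 7 members differ by less than 0.3 kb between the group means.

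At the kinase and its cyclins no region passed either. CDK9 (chr9:127785679-127790792, plus strand), the catalytic subunit, had 1 region at its start (chr9:127785109-127786794). It read 42.1 and 38.7 RPM in DMSO and 32.1 and 34.6 in I-BET151, so both treated libraries were lower. The level with I-BET151 was 0.825 of that with DMSO, and the log2 difference of -0.28 (SE 0.13) did not pass limma's test (adjusted p = 0.106). It passed with median-centred libraries (-0.22, adjusted p = 0.0125), as did 1580 of 10050 regions in that direction. Without DMSO replicate 2 the difference was -0.34. The length there was 1508 and 1686 bp with DMSO, against 1578 and 1632 bp with I-BET151. Over the whole window peaks covered 2076 and 2269 bp against 2037 and 2058 bp (difference -0.125 kb, exact p = 0.33), the rest lying at the start of FPGS, a folate enzyme gene. The FPGS region read 27.9 and 25.2 against 24.2 and 28.0. The lower coverage of the window lay there, with 568 and 583 bp against 459 and 426 bp, and not at the CDK9 start.

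CCNT2 (chr2:134918235-134959342, plus strand), a cyclin T gene, had 1 region (chr2:134918064-134919392), called in every library. It read 48.5 and 41.3 RPM in DMSO and 52.3 and 51.4 in I-BET151. Both treated libraries were higher, and the log2 difference of 0.21 (SE 0.16) did not pass limma's test (adjusted p = 0.356). It passed with median-centred libraries (0.27, adjusted p = 0.0272), as did 2420 of 10050 regions in that direction. Without DMSO replicate 1 the difference was 0.33. Its length was 1298 and 1250 bp with DMSO, against 1313 and 1326 bp with I-BET151, a difference of 0.0455 kb between the means.

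CCNT1 (chr12:48688458-48716998, minus strand), the other cyclin T gene, had a weak peak at its start in 1 library of each group. It carried 65 reads (fold 6.71) in DMSO replicate 2 and 74 reads (fold 3.75) in I-BET151 replicate 1. Most of the coverage of its window lay at the KANSL2 start, which read 34.7 and 32.5 RPM in DMSO and 30.6 and 35.2 in I-BET151. LARP7 (chr4:112637077-112657696, plus strand), the 7SK-binding protein of the particle, had 1 peak in 1 library. I-BET151 replicate 1 listed it at the start with 36 reads (95% Poisson interval 25.2 to 49.8), and its fold of 10.0 rested on a local input level of 0.508. Neither start region was listed in every library, so neither entered limma's test. Over the windows, peaks covered 0.646 ± 0.209 and 0.676 ± 0.219 kb at CCNT1 in DMSO and I-BET151 (SD, n = 2 each, exact p = 0.667), and the groups overlapped. At LARP7 they overlapped too (exact p = 1).

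Ordered by RPM at their lead start region, the members in DMSO were HEXIM2 (51.6 ± 7.70, SD, n = 2), CCNT2 (44.9 ± 5.11), CDK9 (40.4 ± 2.37), BRD2 (32.3 ± 2.99), BRD3 (32.1 ± 1.14) and HEXIM1 (29.8 ± 1.74). The libraries of neighbours overlapped in that order except between CDK9 and BRD2 and between BRD3 and HEXIM1. In I-BET151 the order was HEXIM2 (56.6 ± 1.06), CCNT2 (51.9 ± 0.676), BRD3 (39.1 ± 0.625), BRD2 (36.9 ± 2.03), HEXIM1 (33.9 ± 1.30) and CDK9 (33.3 ± 1.76), and only the last pair overlapped. The place of BRD2 depends on the region taken: its broadest start region, at 40.4 ± 3.25 in DMSO and 45.6 ± 0.0710 in I-BET151, would put it level with CDK9 in DMSO and between CCNT2 and BRD3 in I-BET151. Percentiles of these RPM values were taken among all shared regions with a read value in every library, at starts or elsewhere. The lead start region of HEXIM2 stood at percentile 98.8 to 99.6 in each library and that of HEXIM1 at 54.6 to 68.2.

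Over all members, 3 of 14 regions fell and 0 rose on RPM by limma's test, against 14.0% lower and 10.0% higher among all regions. All 3 overlapped the HEXIM1 window, the PLCD3 intron only in part, and 1 of them lay also in the window of HEXIM2. On the fold, 0 of 15 passed, beside 0.0194% higher and 0.0485% lower of all 10317 regions. At an unadjusted p under 0.05 there were 2 of the 15 and 1131 of the 10317. On the covered length, 0 of 15 passed, beside 0.572% higher and 1.57% lower, with 3 of the 15 and 1569 of the 10317 at an unadjusted p under 0.05. The median log2 difference in reads was 0.10 over the member regions and 0.00 over all regions. By window coverage, 3 members were higher in both I-BET151 libraries (BRD3, BRDT and CCNT2), 3 were lower (HEXIM1, HEXIM2 and CDK9) and 3 overlapped (BRD2, CCNT1 and LARP7), where 13.2% of all gene windows with a peak were higher and 41.2% lower. No label says that the replicates were separate cultures, so the spread between these libraries may be technical. The p-values of limma rest on that spread as shared over all regions, not on the spread of a single region alone.

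**Figure D4:**
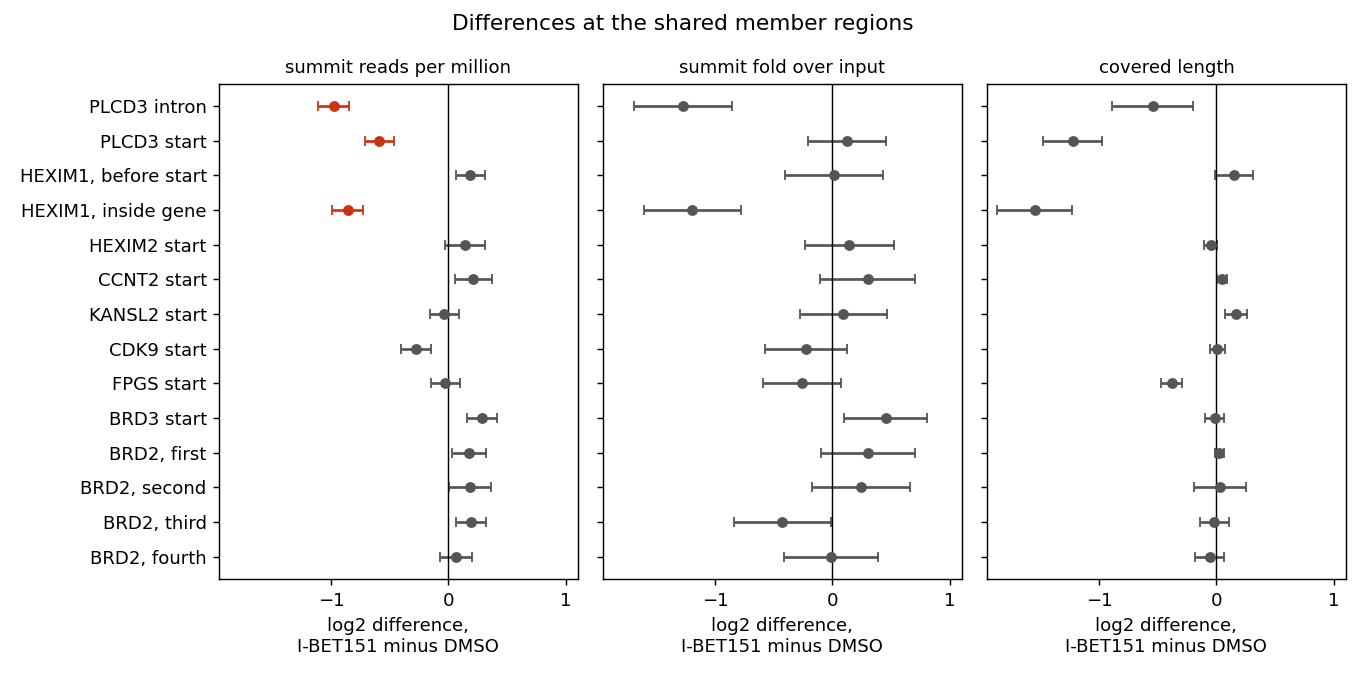
Log2 difference, I-BET151 minus DMSO, at the 14 shared member regions with 4 read values, for summit RPM, summit fold over input and covered length; points are limma estimates, bars are 1 SE and red marks an adjusted p under 0.05. Red points appear for reads alone, at the PLCD3 intron (-0.98), the PLCD3 start (-0.59) and inside HEXIM1 (-0.85), and the PLCD3 start lies on the other side of 0 for the fold.

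The partners of these genes in pause release were taken as 6 lists with 35 genes, of which 30 had a peak at a start and 28 could be tested on reads. On reads, 3 of 28 rose and 3 fell by limma's test, beside 10.0% higher and 14.0% lower among all 10050 regions, and on the fold 0 of 29 passed. The balance of directions moved with the scaling and with the libraries kept. With median-centred libraries 7 rose and 2 fell (2420 and 1580 of all regions), and without DMSO replicate 1 these were 10 and 0 (2008 and 633). Without DMSO replicate 2 they were 2 and 3 (765 and 1169), without I-BET151 replicate 1 0 and 4 (703 and 855), and without I-BET151 replicate 2 1 and 3 (726 and 1380). Those that fell were SUPT5H, CDK7 and CCNK. SUPT5H, a subunit of the pausing factor DSIF, read 23.2 and 20.3 RPM in DMSO and 16.2 and 14.9 in I-BET151 (log2 difference -0.48, SE 0.14, limma adjusted p = 0.00307). CCNK, the cyclin of CDK12 and CDK13, read 25.0 and 22.1 against 16.4 and 16.4 (-0.52, SE 0.13, adjusted p = 0.000844). CDK7, the kinase of TFIIH, read 16.2 and 14.8 against 14.0 and 8.59, so its difference (-0.50, SE 0.17, adjusted p = 0.0159) came mainly from I-BET151 replicate 2, and without it was -0.14 (adjusted p = 0.645). Without DMSO replicate 1, none of the 3 passed.

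Those that rose were MLLT3, RN7SK and ATAD5. MLLT3, an acetyl-lysine reader of the super elongation complex, read 33.9 and 30.1 RPM in DMSO and 45.1 and 43.4 in I-BET151 (log2 difference 0.47, SE 0.13, limma adjusted p = 0.00257). RN7SK, which encodes the 7SK RNA, read 34.0 and 30.5 against 43.4 and 38.4 (0.34, SE 0.13, adjusted p = 0.034). It did not pass with any of DMSO replicate 2, I-BET151 replicate 1 or I-BET151 replicate 2 left out (adjusted p = 0.0867, 0.453 and 0.132). ATAD5, which was listed among BET partners, read 15.3 and 14.8 against 23.5 and 19.8 (0.51, SE 0.14, adjusted p = 0.00153). Without I-BET151 replicate 1, MLLT3 and ATAD5 did not pass (adjusted p = 0.114 and 0.0564), and MLLT3 did not without I-BET151 replicate 2 (0.0732).

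By list, the super elongation complex had 1 of 6 tested genes that rose, the pausing factors 1 of 5 that fell, the 7SK particle 1 of 2 that rose, the other kinases of the polymerase tail 2 of 7 that fell, the BET partners 1 of 4 that rose and the writers and erasers of acetylation 0 of 4. In the log2 fold, the 3 largest differences of each list were at MLLT3 (1.12), EAF1 (0.48) and MLLT1 (0.48), at SUPT5H (-1.46), SUPT4H1 (0.75) and NELFCD (0.72), at CCNC (-0.90), CCNK (-0.81) and CDK7 (-0.69), at ATAD5 (0.69), JMJD6 (0.15) and BICRA (0.13), and at CREBBP (0.75), HDAC2 (0.35) and EP300 (0.22). In the 7SK list, the capping enzyme gene MEPCE differed by 0.44 and RN7SK by 0.08. The HDAC3 start region was called in the DMSO libraries alone, and ELL3, EAF2, NELFE, CCNH and MNAT1 had no peak at a start.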

How the data were processed

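H3K27ac ChIP-seq peak lists of 2 DMSO and 2 I-BET151 libraries of PPs were analysed, with groups and replicate numbers from the titles. According to the methods, the authors aligned reads to hg38 (Bowtie2 2.2.5, local mode), filtered the alignments using sambamba, Picard for duplicates and samtools for mitochondrial reads, and called peaks in each library with MACS2 2.1.2 at default settings. The deposited columns give a score, the fold as a ratio over local background at the summit, and −log10 of the p-value and q-value. Whole ChIP reads and the local input level at each summit were solved from the deposited fold and −log10 p, which the caller makes from the same counts. They were resolved for 98.7 to 99.2% of peaks. Library totals, on which RPM rests, were estimates. These took the lowest local input level, the caller's default genome size, the shortest listed peak as fragment length and the ChIP-to-input scaling. The lists follow the build of GENCODE 44: a protein-coding start was within 3 kb for 82.1 to 85.9% of summits, and for 17.3 to 18.0% after a shift of 1 Mb.

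Shared regions were compared with limma 3.58.1 (R 4.3.3; eBayes with trend, Benjamini-Hochberg over all regions, threshold 0.05) on log2 fold (the main test), log2 covered bp and, as an alternative, log2 RPM. Single windows were compared by exact permutation over 6 assignments. Scripts used Python 3.11.15, pandas 2.3.3 and pysam 0.24.0 and were tested on simulated data. The depth behind a value is its read count, and Poisson intervals cover counting error only. Columns of no known sample numbered 0. Named were all 9 members with every region, the 3 genes nearest to the member with the largest difference in fold at its start, and in each list the 3 largest differences in fold and those passing a test. Members and lists were chosen with earlier results of these data known, and the tests of reads under other settings were added after seeing the data. Alternatives covered windows, thresholds, merging, scaling, each library left out and a replicate block. With a library left out its group held 1 library, so limma measured the spread in the other group alone. Passing or failing in such a fit does not reflect the spread of both groups. Input libraries were not used as samples, and the sequence of 1 region is not reported here.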

Additional observations from a re-analysis of the deposited data

How the results depend on the processing

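The read differences at the PLCD3 intron, the PLCD3 start and inside HEXIM1 passed limma's test with the replicate block and with median-centred libraries. In these 2 settings the adjusted p reached at most 3.957e-05, 0.002655 and 0.0002049. With a library left out, the log2 differences ranged from -1.10 to -0.86, from -0.69 to -0.48 and from -1.09 to -0.62. On the fold no alternative made the PLCD3 intron or the region inside HEXIM1 pass except the read scale itself (-0.98 and -0.85), where the PLCD3 start reversed from 0.12 to -0.59. The log2 covered length of the PLCD3 intron differed by -1.03 without I-BET151 replicate 1. That of the PLCD3 start differed by -1.56 without I-BET151 replicate 2.

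Replicate numbers in the titles are only numbers: the replicate differences of the groups correlated at 0.0355 in log2 fold and 0.0118 in calls. With the replicate block, the counts of regions higher and lower in I-BET151 were 53 and 34 for fold (2 and 5 without it), 0 and 0 for covered length (59 and 162) and 622 and 961 for reads (1006 and 1409). Median-centring gave 2420 and 1580 for reads. With the block MLLT3 (adjusted p = 0.108) and RN7SK (0.289) no longer passed on reads.

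For fold, the counts of regions higher and lower were 1 and 2 with −log10 q of at least 5, 0 and 3 with an equal number of top-ranked peaks, 8 lower with median-centred or quantile-normalized fold, 1 higher without a trend, and 1006 and 1409 on summit RPM. Leaving out 1 library gave 0 to 5 higher and 0 to 4 lower for fold, 0 to 7 and 0 to 192 for covered length, and 703 to 2008 and 633 to 1380 for reads, with 2008 and 633 without DMSO replicate 1. For covered length the counts were 4 higher and 30 lower without a trend, and 87 and 85 lower with median-centred and quantile-normalized values.

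Coverage reversed at CDK9 with flanks of 10 kb (0.008 kb) and at CCNT1 over the gene body (-0.041 kb), and was 0 at BRDT without the outer flanks. With a library left out it ranged from -0.128 to 0.192 kb at BRD2, from -0.125 to 0.185 kb at CCNT1 and from 0 to 0.289 kb at LARP7. It stayed negative at HEXIM1 (-2.20 to -2.005 kb) and HEXIM2 (-1.78 to -1.07 kb). Regions called in I-BET151 alone numbered 1 with −log10 q of at least 5 and with equal numbers of peaks, and 0 to 1 with a library left out; those in DMSO alone numbered 1 to 3. The read difference at the HEXIM2 start reversed to -0.0107 without DMSO replicate 2 and was 0.29 without DMSO replicate 1. The cause of these changes was not tested. The 8 member regions not listed in every library carried 36 to 143 reads where they were listed, and the 15 listed in every library carried 71 reads or more where reads were recovered.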
